A study of Mus musculus with 6 samples.

Results

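The genes described here are Tnf, which encodes the cytokine tumour necrosis factor, and 3 genes of its family and pathway, Tnfsf9, Traf1 and Tnfaip2. They were chosen by gene symbol in the platform's probe table, which holds 1 probe for each, so they are 4 of 10076 probes and 4 of 8841 named genes. Messenger RNA was measured in primary macrophages drawn from female C57BL/6 mice, aged 6 weeks, after thioglycollate, a sterile irritant that recruits inflammatory cells. There were 6 groups with 1 array each and no replicate. Cells at rest had No treatment or TSA (trichostatin A, which inhibits histone deacetylases). The other 4 groups had LPS, bacterial lipopolysaccharide sensed through a Toll-like receptor, by itself (LPS), or joined by TSA (TSA + LPS), by GW3965 (GW3965 + LPS) or by both (TSA + GW3965 + LPS). GW3965 is a synthetic agonist of the liver X receptors, nuclear receptors of cholesterol handling that are also known to dampen inflammatory genes. Dose, time, and whether cells were pooled from several mice are not given in the sources used here. A question raised by the series title is whether TSA blocks the LPS response of such genes.

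Tumour necrosis factor is made by macrophages within a short time of sensing bacteria. It binds receptors encoded by Tnfrsf1a and Tnfrsf1b, whose adaptors (TRAF proteins) and ubiquitin ligases lead to the transcription factor NF-kB, to MAP kinases or, when those fail, to cell death. NF-kB in turn drives genes that spread the response, including Tnf itself, and genes that end it. Tnfsf9 encodes the 4-1BB ligand, a membrane protein of the same family that costimulates T cells. Traf1 encodes an adaptor of TNF family receptors that is itself an NF-kB target. Tnfaip2 was named as a gene induced by TNF and encodes the protein M-Sec, known for its part in thin membrane bridges between cells.

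The promoters of 3 of the 4 genes were in the RefSeq promoter table (build GRCm38.p6). They are printed because these genes rose together with LPS, each as the 250 bases before the annotated start. Capitals mark matches, on either strand, to the NF-kB kappaB consensus, to the AP-1 site TGANTCA or to the TATA box TATAAA.
Tnf, chr17:35202008-35202257, minus strand: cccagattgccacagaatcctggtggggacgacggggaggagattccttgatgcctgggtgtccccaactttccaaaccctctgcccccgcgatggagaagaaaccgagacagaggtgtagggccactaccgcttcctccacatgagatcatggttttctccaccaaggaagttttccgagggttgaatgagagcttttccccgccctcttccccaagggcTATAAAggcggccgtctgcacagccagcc
Tnfaip2, chr12:111442411-111442660, plus strand: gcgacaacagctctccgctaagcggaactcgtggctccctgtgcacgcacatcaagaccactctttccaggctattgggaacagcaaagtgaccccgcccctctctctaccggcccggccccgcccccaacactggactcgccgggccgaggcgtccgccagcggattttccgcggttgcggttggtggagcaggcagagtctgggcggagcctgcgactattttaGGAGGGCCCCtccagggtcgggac
Traf1, chr2:34961773-34962022, minus strand: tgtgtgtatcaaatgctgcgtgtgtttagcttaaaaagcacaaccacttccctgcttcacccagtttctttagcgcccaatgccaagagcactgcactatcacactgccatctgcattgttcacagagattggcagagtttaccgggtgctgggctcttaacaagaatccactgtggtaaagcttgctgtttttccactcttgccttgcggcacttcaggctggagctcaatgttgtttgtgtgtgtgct
The Tnf window holds TATAAA from 29 to 24 bases before the start, a match found in 12.4% of 32851 promoter windows of this length. The Tnfaip2 window holds a kappaB match on its opposite strand, printed as GGAGGGCCCC, from 24 to 15 bases before the start. A kappaB match was present in 7.25% of the windows and TGANTCA in 6.75%. None of the searched letters occur in the Traf1 window, and this says only that they are not in those 250 bases.

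Of 11 macrophage markers 8 were on the array, and 7 or 8 of them stood at or above the array's median in every group; among them Lyz2, a lysozyme, read 729 to 1050 units. The neutrophil list (8 of 11 on the array) had a summed level of 24.9 without treatment and 34.6 with TSA. On the 4 LPS arrays it was 52.8 to 82.3, and most of the sum on every array was S100a8. Mpo and Elane were at 0.0374 to 0.281. Camp was higher with LPS in both pairs (0.172 to 2.54 and 0.0692 to 1.16), whereas Ltf was lower in both (0.771 to 0.435 and 1.11 to 0.306). The NK cell list (4 of 6) summed to 22.7 and 26.4 without LPS and to 39.3 to 59.8 with it. In the pair without TSA that difference lay in Klrk1 (0.541 to 21.9), with Gzma at 21.6 and 21.3. In the pair with TSA both were higher with LPS, Klrk1 (1.10 to 19.7) and Gzma (24.9 to 39.6). Prf1 stayed at 0.00687 to 0.167 on all arrays. Of the 10 marker lists 6 had a higher sum with LPS in both pairs: these 2, the macrophage and B cell lists, the mast cell list (13.5 to 18.4 and 15.1 to 19.8) and the fibroblast and mesothelium list (9.74 to 16.6 and 14.5 to 15.2). Only the neutrophil sum was higher with TSA in all 3 pairs (24.9 to 34.6, 52.8 to 82.3 and 53.2 to 73.8). For these lists, their part in the results was not tested. The T cell list (8 of 9 on the array) summed to 4.36 to 5.97 and the B cell list (5 of 7) to 7.67 to 9.98. In a bulk sample, a change in the number of cells and a change in RNA per cell cannot be told apart.

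LPS raised the mRNA of all 4 genes, Tnf most and Tnfaip2 least. Intensities are in the scaled linear units of the deposited table, in which an array's median is just under 1, and levels of different probes are not compared. Tnf read 0.648 without treatment and 0.222 with TSA, both below the array medians and the second below the floor of 0.228, the 25th percentile of that array. It read 77.3 with LPS, 26.1 with TSA + LPS, 52.5 with GW3965 + LPS and 33.6 with TSA + GW3965 + LPS. The 4 LPS arrays do not overlap the other 2. The Tnf probe was brighter than 42.6% of all probes without treatment, 24.7% with TSA and 96.3% with LPS.

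Tnfsf9 read 0.929 without treatment, 1.18 with TSA, 13.6 with LPS, 9.0 with TSA + LPS, 12.5 with GW3965 + LPS and 9.90 with TSA + GW3965 + LPS. The ligand thus started near the median of each array and stood clearly above it on every LPS array. Traf1 read 5.53 without treatment and 5.26 with TSA. It reached 129.8 with LPS, 179 with TSA + LPS, 112 with GW3965 + LPS and 122 with TSA + GW3965 + LPS, so the adaptor was highest on the TSA + LPS array, while TSA + GW3965 + LPS lay below LPS. Tnfaip2 was already bright at rest, at 45.7 without treatment and 25.7 with TSA. It read 119.7 with LPS, 88.4 with TSA + LPS, 113 with GW3965 + LPS and 86.8 with TSA + GW3965 + LPS.

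**Figure D1:**
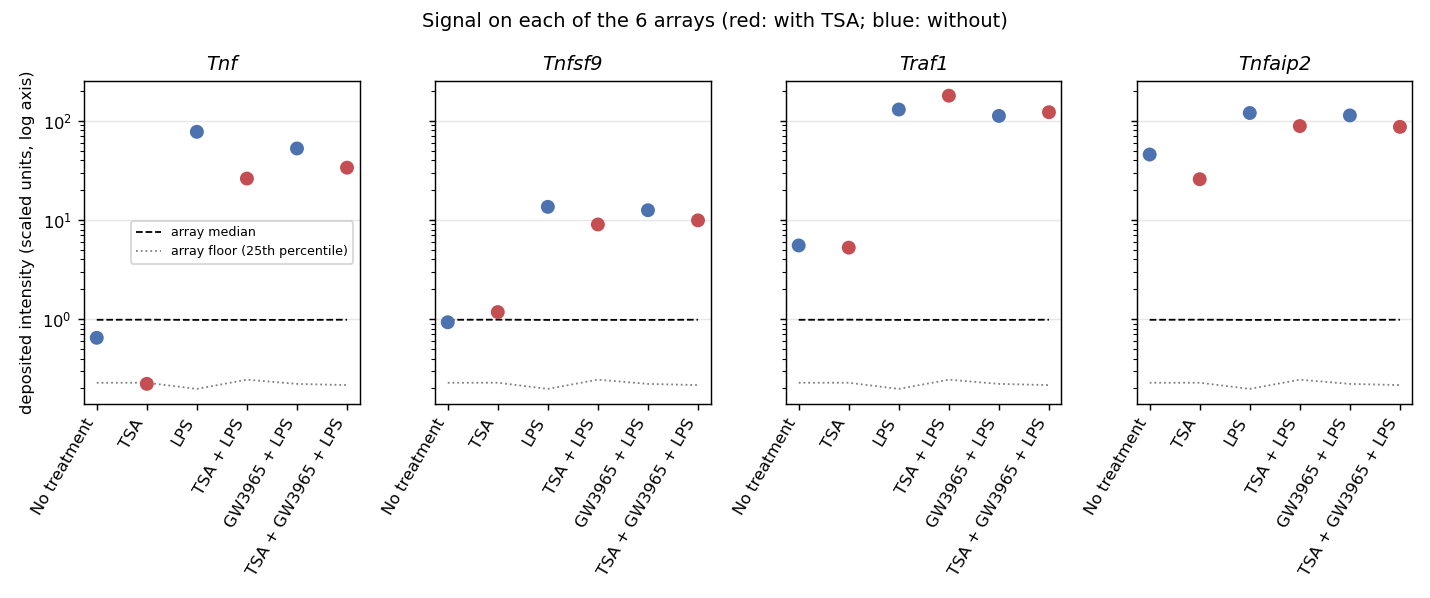
Deposited intensity of each gene's probe (log axis, scaled units) on the 6 arrays, 1 point per array, red with TSA and blue without; dashed and dotted lines are each array's median and 25th percentile. The LPS arrays lie above the other arrays for all 4 genes, and Tnf with TSA alone lies at the floor.

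For the effect of LPS, limma was run on 5080 genes with 1 additive term per agent, and a gene is said to have risen or fallen where its Benjamini-Hochberg adjusted p over all of them is under 0.05. The LPS term is the mean log2 difference over 2 pairs of arrays. All 4 genes rose, where 12.3% of the genes tested rose. Tnf entered the fit only through its LPS arrays, because a gene had to reach the median on at least 1 array, so that count supports nothing by itself. Traf1 rose by 4.82 (SE 0.25, limma adjusted p = 1.69e-11) and Tnfsf9 by 3.40 (SE 0.28, limma adjusted p = 1.54e-08), both higher in 2 of 2 pairs. Tnfaip2 rose by 1.59 (SE 0.24, limma adjusted p = 5.71e-05, higher in 2 of 2 pairs). The mean for Tnf was 6.87 (95% interval 6.28 to 7.45), with the TSA array entered at its floor; with a floor at the median it was 5.51.

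The response to LPS was also read within each background. Without TSA the difference was 119-fold for Tnf, 14.6-fold for Tnfsf9 and 2.62-fold for Tnfaip2; in TSA-treated cells it was at least 114-fold, 7.65-fold and 3.44-fold. Traf1 differed by 4.55 on the log2 scale without TSA and by 5.09 with it. All 4 were thus at least 2-fold higher in both pairs and 0 were lower. Of measured genes 14% were as much higher and 6.05% lower without TSA, and 9.2% and 6.37% with it. Tnfsf9 had the smaller response with TSA, and Traf1 and Tnfaip2 the larger. After quantile normalization the difference for Tnfaip2 without TSA was 1.0 on the log2 scale in place of 1.39.

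TSA lowered Tnf and left no call in either direction for the other 3 genes. Over 3 pairs, Tnf fell by 1.24 in log2 units on average (SE 0.23, limma adjusted p = 0.00114), 2.36-fold, and was lower with TSA in 3 of 3 pairs. Its differences were -1.50 at rest, as a bound, -1.57 with LPS and -0.64 with GW3965 + LPS. In units, TSA + LPS held 33.8% of the Tnf signal of LPS, and TSA + GW3965 + LPS held 64% of that of GW3965 + LPS. A fall was called for 7.54% of the genes tested and a rise for 11%. In the single pair TSA + LPS against LPS, Tnf was the 1 gene of the 4 at least 2-fold lower and 0 were higher, where 9.55% of measured genes were lower and 7.57% higher. None of the 4 was 2-fold apart in the pair under GW3965 + LPS (4.83% of genes higher, 1.13% lower), nor any of the 3 measured at rest (6.98% higher, 4.69% lower). Without the resting arrays, where Tnf is dim, the mean was -1.10. With that floor raised to the median, the resting difference was 0.00, and the mean of -0.73 did not pass (limma adjusted p = 0.15; 6.86e-07 to 0.15 over all 18 settings).

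Tnfaip2 was lower with TSA in 3 of 3 pairs but missed the threshold. Its log2 differences were -0.83 at rest, -0.44 with LPS and -0.38 with GW3965 + LPS, a mean of -0.55 (95% interval -0.96 to -0.14; limma adjusted p = 0.0583). It passed after quantile normalization (-0.70, limma adjusted p = 0.0153), after cyclic loess (-0.72, 0.0119) and with a robust prior (0.0485). It also passed without the LPS array, without the TSA + LPS array and without both. Those fits share the mean of -0.61 and are not separate results. Over all 18 settings the adjusted p ran from 0.0119 to 0.337.

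Tnfsf9 was higher with TSA at rest, by 0.34, and lower by 0.59 with LPS and by 0.34 with GW3965 + LPS. The mean of -0.20 had an interval of -0.67 to 0.28 (limma adjusted p = 0.604). Without the LPS array, or without the TSA + LPS array, the mean was 0.00. Traf1 differed by -0.07 at rest, 0.46 with LPS and 0.12 with GW3965 + LPS, and its mean of 0.17 had an interval of -0.25 to 0.59 (limma adjusted p = 0.614). It was therefore higher in 2 of 3 pairs, and the interval leaves out a fall of the size measured for Tnf.

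**Figure D2:**
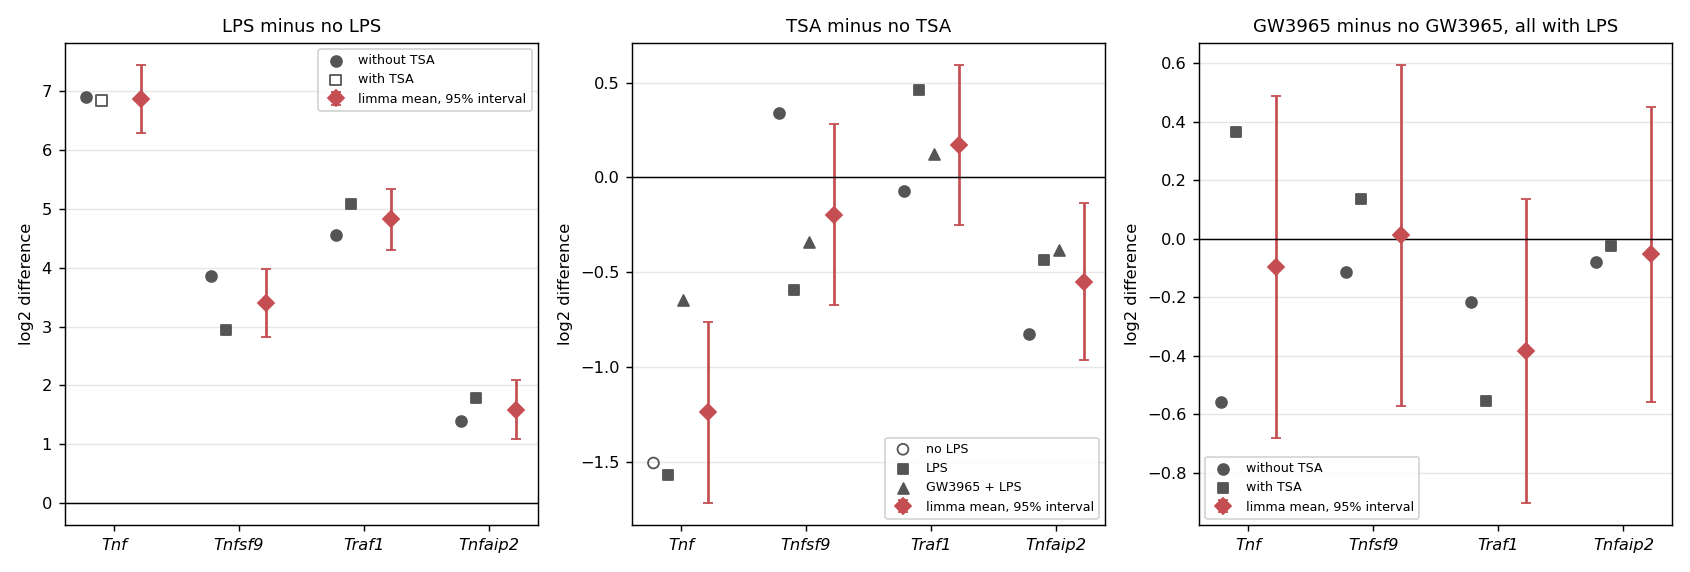
Log2 differences for LPS, TSA and GW3965 (y axes differ in range), each pair of arrays as a grey symbol (open where a value was at the floor) beside the limma mean with its 95% interval in red. For TSA only the interval of Tnf (-1.72 to -0.76) belongs to a called gene, and the interval of Traf1 spans 0.

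Whether the TSA difference depended on LPS was tested directly, as the mean of the 2 TSA differences under LPS minus the one at rest. None of the 4 genes passed in limma, 0 had an unadjusted p under 0.05, and 0.0394% and 0.197% of all genes were called higher and lower. The value was -0.81 for Tnfsf9 (95% interval -1.80 to 0.19), 0.42 for Tnfaip2 (-0.46 to 1.29) and 0.37 for Traf1 (-0.50 to 1.24). For Tnf it was 0.40 (-0.53 to 1.34), and -1.11 with the floor at the median, so its direction turns with the treatment of a single dim reading. These intervals are wide: a 2-fold dependence lies within that of each gene.

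GW3965 moved none of the 4 genes past the threshold. Tnf was 1.47-fold lower in GW3965 + LPS than in LPS and 1.29-fold higher in TSA + GW3965 + LPS than in TSA + LPS, a mean of -0.10 (95% interval -0.68 to 0.49, limma adjusted p = 0.9999). Traf1 was lower in both pairs, by 0.22 and 0.55 on the log2 scale, with a mean of -0.38 (-0.90 to 0.13). Tnfsf9 differed by -0.11 and 0.14, and Tnfaip2 by -0.08 and -0.03. None was 2-fold apart in either pair: of measured genes 0.476% were as much higher and 1.25% lower without TSA, and 1.75% and 0.577% with it. No unadjusted p of the 4 was under 0.05, and 0.0591% and 0.0197% of all genes rose and fell. The TSA difference with GW3965, minus the mean of the TSA differences without it, was 0.89 for Tnf (-0.24 to 2.02, limma adjusted p = 0.999). Of all genes 0.0394% and 0.0197% were called higher and lower in that comparison.

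The order of levels differed between the genes. Each adjacent pair was set against the SD of a difference between 2 arrays in the fit, 0.40 on the log2 scale for Tnf, 0.39 for Tnfsf9, 0.34 for Tnfaip2 and 0.35 for Traf1. Tnf ranked, from high to low, LPS, GW3965 + LPS, TSA + GW3965 + LPS, TSA + LPS, No treatment and TSA. Only its 2 arrays with both TSA and LPS lay within that spread of each other, at 0.37. For Tnfsf9 every neighbour within the LPS arrays, and the 2 resting arrays, lay within it. For Tnfaip2 the 2 LPS arrays without TSA lay 0.08 apart, the 2 with TSA 0.03 apart, and the step between these pairs was 0.36. Traf1 had TSA + LPS on top, 0.46 above LPS, and the other 3 LPS arrays within the spread.

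Genes with the most similar pattern were found as the root mean square difference over the 6 arrays of log2 values centred on their mean. For Tnf these were the cytokines Il1a (0.33), Il12a (0.58) and Il6 (0.73), the antiviral gene Rsad2 (0.66) and the chemokine Ccl5 (0.70). Il1a read 2.04 units at rest and 1.16 with TSA, 195 with LPS against 71.6 when TSA was added, and 167 with GW3965 + LPS against 125 when TSA was added. Il1a and Il12a were lower with TSA in every pair, but both were picked for their likeness to Tnf over these same arrays. Ccl5 was higher with TSA under LPS (900 to 1116) and under GW3965 + LPS (856 to 901). Rsad2 was higher with TSA under GW3965 + LPS (17.6 to 32.1), and Il6 was slightly higher with TSA at rest (0.413 to 0.447). For Tnfsf9 they were the fatty acid carrier Fabp3 (0.10), the glucosylceramide synthase Ugcg (0.14), the exonuclease Trex1 (0.17), Timp1 (0.20) and the kinase Jak2 (0.21). For Tnfaip2 they were Ikbke (0.13), Psmb10 (0.16), Ptpre (0.17), Syk (0.20) and Ext1 (0.20), and for Traf1 Ccl3 (0.33), Cflar (0.35), Cep55 (0.35), Tlr2 (0.36) and Nfkbia (0.44). Among the 4, Traf1 was the 21st nearest gene to Tnf (1.28), Tnfsf9 the 54th (1.72) and Tnfaip2 the 245th (2.51) of the genes in the fit. Traf1 was the 130th nearest to Tnfsf9 (0.70) and Tnfaip2 the 238th (0.94), whereas Traf1 ranked 4908 from Tnfaip2. The values were centred but not scaled, so these ranks also reflect how far LPS moved each gene. Both Traf1 (4.82) and Tnfaip2 (1.59) rose with LPS, so the low rank does not mean an opposite pattern. Ugcg without treatment (0.116 units) and Rsad2 with TSA (0.206) read below the floor, so their likeness rests in part on floored values. The same holds for Tnf with TSA (0.222).

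**Figure D3:**
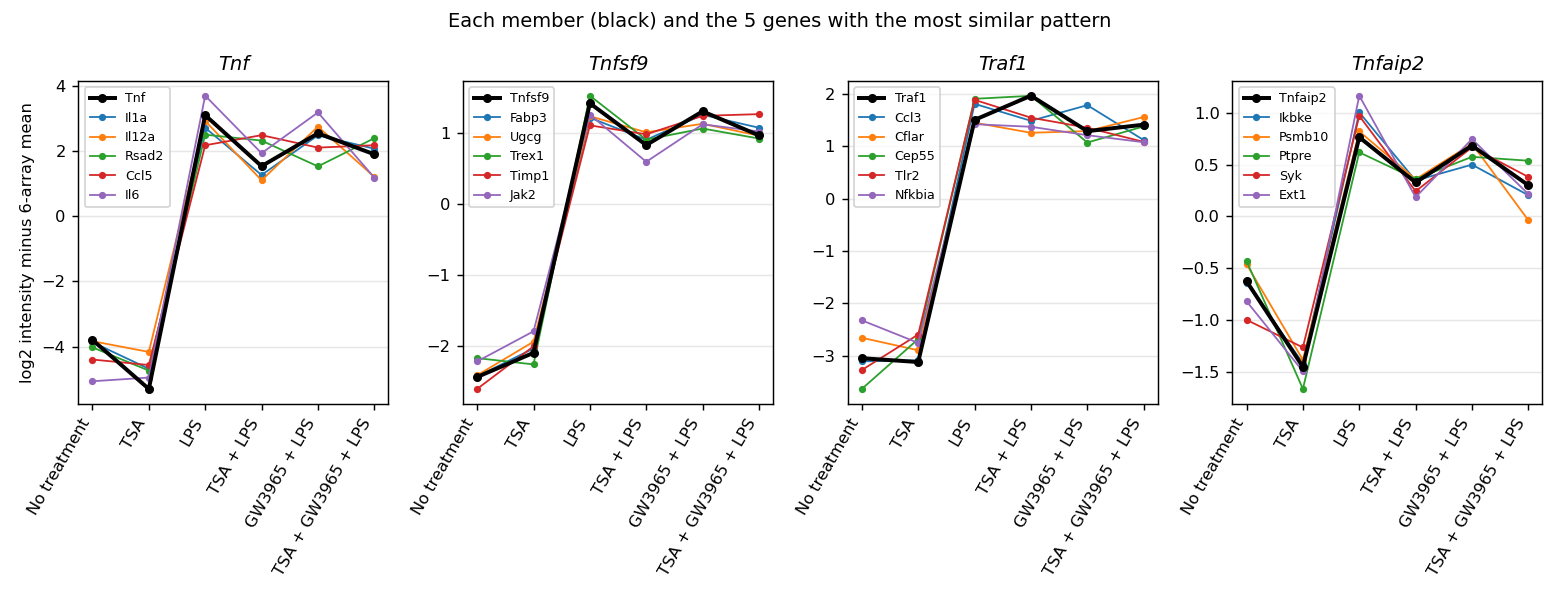
Log2 intensity minus its 6-array mean (y axes differ in range) for each gene, in black, and the 5 genes of most similar pattern. Il1a follows Tnf with a root mean square difference of 0.33, and Fabp3 follows Tnfsf9 with 0.10.

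The wider pathway was read from 6 lists of 122 symbols, of which 82 were on the array and 57 in the fit, 12 of them only through LPS arrays. With LPS 29 of the 57 rose and 1 fell, where 12.3% of all genes rose and 7.11% fell, and the median log2 difference was 0.91 against 0.03. Those 12 reached the median on LPS arrays alone, which favours a rise, and 8 of them rose; of the other 45 genes 21 rose. With TSA 6 rose and 8 fell, where 11% and 7.54% of all genes did, so the share that rose was near that of all genes (median -0.06 against 0.01). Of the rises, Tnfsf13b and Tnfrsf23 reached the median only on arrays with TSA. Of the falls, Ikbkg reached it only on arrays without TSA. The TSA counts are thus also in part set by the level filter. With GW3965 limma called 0 of the 57, with 2 at an unadjusted p under 0.05. TSA lowered 5 of the 29 that rose with LPS and raised 2, while 22 missed the threshold; of all 626 genes that rose with LPS, 12.9% fell and 7.67% rose with TSA. The 5 were Tnf, Nfkb2, Traf2, Tnip1 and Zfp36, and the 2 were Fas and Cyld. With the floor at the median 23 of the 29 rises with LPS were still called. Of the TSA calls, 2 of 6 rises (Fas and Tnfrsf22) and 0 of 8 falls were. For 4 of the 12 TSA calls lost in this way (Cyld, Rbck1, Tnfrsf1a and Zfp36) the log2 difference itself stayed the same to within 0.005 and only the adjusted p changed.

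Among TNF family ligands 14 of 18 were on the array and 9 in the fit. With LPS 4 rose and 0 fell, where 12.3% and 7.11% of all genes did. The 4 were Tnf, Tnfsf9, the death ligand Tnfsf10 (2.04 on the log2 scale) and Cd70 (1.65), a costimulatory ligand of T cells. Of these, Tnf, Tnfsf10 and Cd70 entered only through LPS arrays, so the count is in part set by the level filter. Cd70 did not pass with the floor at the median (0.25, limma adjusted p = 0.357). With TSA Tnf fell and Tnfsf13b, the B cell survival factor BAFF, rose by 1.17 (SE 0.27, limma adjusted p = 0.00621). Tnfsf13b read 0.694, 0.465 and 0.438 units without TSA and 1.44, 0.984 and 1.15 in the matching arrays with it. Those readings lie around the array median, which Tnfsf13b reached only with TSA, and this favours a rise. With the floor at the median the rise was 0.26 and did not pass. Tnfsf13 (APRIL), at 35.2 to 55.9 units, passed neither test.

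Of the TNF receptor family 20 of 28 were on the array and 12 in the fit. With LPS 3 rose and 0 fell, where 12.3% and 7.11% of all genes did. Cd40, the receptor of T cell help, rose by 5.79 on the log2 scale, Tnfrsf11a (RANK), the receptor of osteoclast formation, by 3.68, and the death receptor Fas by 2.73. Of these, Tnfrsf11a entered only through LPS arrays, which favours a rise. Cd40 was not called with TSA. It read 1.63, 170 and 119 units without TSA and 2.38, 69.8 and 69.2 with it, higher at rest and lower in both pairs under LPS. Tnfrsf1a, the main receptor for TNF, did not pass with LPS (0.27) and fell by 0.82 with TSA (SE 0.22, limma adjusted p = 0.0149, lower in every pair). It read 5.42, 6.96 and 4.09 units without TSA and 2.86, 3.24 and 3.02 with it. Tnfrsf1a was not called with TSA when the No treatment or the TSA array was left out, at -0.77 (limma adjusted p up to 0.0767).

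Receptors that rose with TSA were Fas, by 1.46 (SE 0.23, limma adjusted p = 0.00028), and the decoy receptors Tnfrsf22, by 2.21, and Tnfrsf23, by 1.52. Tnfrsf23 entered the fit only through arrays with TSA, which favours a rise. It read 0.580, 0.633 and 0.707 units without TSA and 1.01, 2.28 and 2.69 with it. With the floor at the median its rise was 0.90 and did not pass. Tnfrsf22 read 1.24, 0.953 and 1.43 units without TSA and 4.45, 6.46 and 5.78 with it, with no overlap. Tnfrsf22 and Tnfrsf23 are closely similar neighbouring genes, so their probes may share signal. Fas read 1.38, 12.7 and 12.9 units without TSA and 5.73, 27.5 and 29.7 with it. Thus the signal of Fas was raised by LPS and by TSA, while that of Tnf was raised by LPS and lowered by TSA.

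Among adaptors and signalling proteins 24 of 39 were on the array and 19 in the fit. Of the 19, 12 rose with LPS and 0 fell, where 12.3% and 7.11% of all genes did. After Traf1 came Cflar, the inhibitor of caspase-8, by 4.13, Birc3, a ubiquitin ligase of the TNF receptor complex, by 2.38, and Tnip1, a partner of the inhibitor A20, by 2.11. Tank rose by 1.72, Ikbke by 1.70, Traf2 by 1.66 and Traf5 by 1.47. Tbk1, Birc2, Tab2 and Cyld were the other risers. Among the 12, Traf2 entered only through LPS arrays, which favours a rise. Leaving out the No treatment array ended the call for Traf5 (1.21, limma adjusted p = 0.0533), Birc2 (0.85, 0.113), Tab2 and Cyld. Leaving out the LPS array ended it for Traf2 (0.98, 0.125), Tab2 and Cyld, and Cyld was also lost without either GW3965 array.

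With TSA 4 of these 19 fell and 1 rose, where 7.54% and 11% of all genes did. Traf2, the adaptor through which Traf1 is known to act, fell by 1.23 (SE 0.31, limma adjusted p = 0.0108), Ikbkg (NEMO) by 0.90, Tnip1 by 0.89 and Rbck1, a part of the linear ubiquitin ligase, by 0.76. Cyld, a deubiquitinase, rose by 0.68. Ikbkg reached the median only on the LPS (1.16 units) and GW3965 + LPS (1.01) arrays, which are without TSA. This favours a fall, so the count of falls is in part set by the level filter. With the floor at the median its difference was -0.09 and did not pass. Traf2 read 0.526, 2.37 and 1.40 units without TSA and 0.242, 0.538 and 1.03 with it, where Traf1 was 5.53, 129.8 and 112 and then 5.26, 179 and 122. The call for Traf2 was lost without the LPS or the TSA + LPS array (-0.78, limma adjusted p up to 0.113). Those for Tnip1 (-0.78, up to 0.0848) and Rbck1 (-0.60, up to 0.21) were lost without the No treatment or the TSA array. Ikbkg was called in none of the 6 fits that leave out an array, and Cyld was lost without either resting array or either GW3965 array.

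Of the genes named as TNF-alpha-induced proteins 6 of 8 were on the array and 4 in the fit. Besides Tnfaip2, Tnfaip8l2, an inhibitor of Toll-like receptor signalling, fell with LPS by 1.51 (SE 0.32, limma adjusted p = 0.00143). It did not pass without the No treatment array (-1.03, limma adjusted p = 0.0862). Tnfaip3, which encodes the NF-kB inhibitor A20, read 3.22, 2.48 and 2.57 units without TSA and 2.24, 2.59 and 2.0 in the matching arrays with it, and passed no test. Tnfaip8l1 rose with TSA by 0.82, a call lost without the LPS or the TSA + LPS array (0.43, limma adjusted p up to 0.296).

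Of the NF-kB list 8 of 11 were on the array and 5 in the fit, and those 5 rose with LPS, where 12.3% of all genes did. Rel and Relb entered only through LPS arrays, so the count is in part set by the level filter. The inhibitor Nfkbia rose by 3.94, Nfkb2 by 3.40, Rel by 2.75, Nfkbib by 1.56 and Relb by 0.91. Relb was lost without the No treatment, the TSA or the LPS array (0.64 to 1.19 over all 6 fits, limma adjusted p up to 0.503). Nfkb2, which encodes the p100 precursor, fell with TSA by 1.09 (SE 0.23, limma adjusted p = 0.00306). It read 1.46, 16.7 and 9.63 units without TSA and 0.612, 5.96 and 6.61 with it. Nfkbia did not pass with TSA (-0.20), and its signal was 198 in LPS cells and 191 in those that also had TSA.

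Of genes that act on Tnf mRNA or on the TNF protein 10 of 18 were on the array and 8 in the fit. With LPS 4 of the 8 rose, where 12.3% of all genes did. Mapkapk2, a kinase that keeps Tnf mRNA translated, rose by 3.06, the intramembrane protease Sppl2a by 1.94, Zfp36 by 1.54 and Elavl1 by 0.94. Of these, Elavl1 entered only through LPS arrays, which favours a rise. Elavl1 was lost without the No treatment, the TSA or the LPS array (limma adjusted p up to 0.238). Zfp36 encodes tristetraprolin, which destabilises Tnf mRNA. With TSA it fell by 0.88 (SE 0.25, limma adjusted p = 0.0204). It read 6.06, 29.2 and 18.1 units without TSA and 4.97, 8.70 and 11.8 with it, so Tnf and Zfp36 were both lower with TSA in all pairs. Its call was lost without the LPS or the TSA + LPS array (-0.45, limma adjusted p up to 0.195). Adam17, the protease that sheds TNF, passed neither test.

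**Figure D4:**
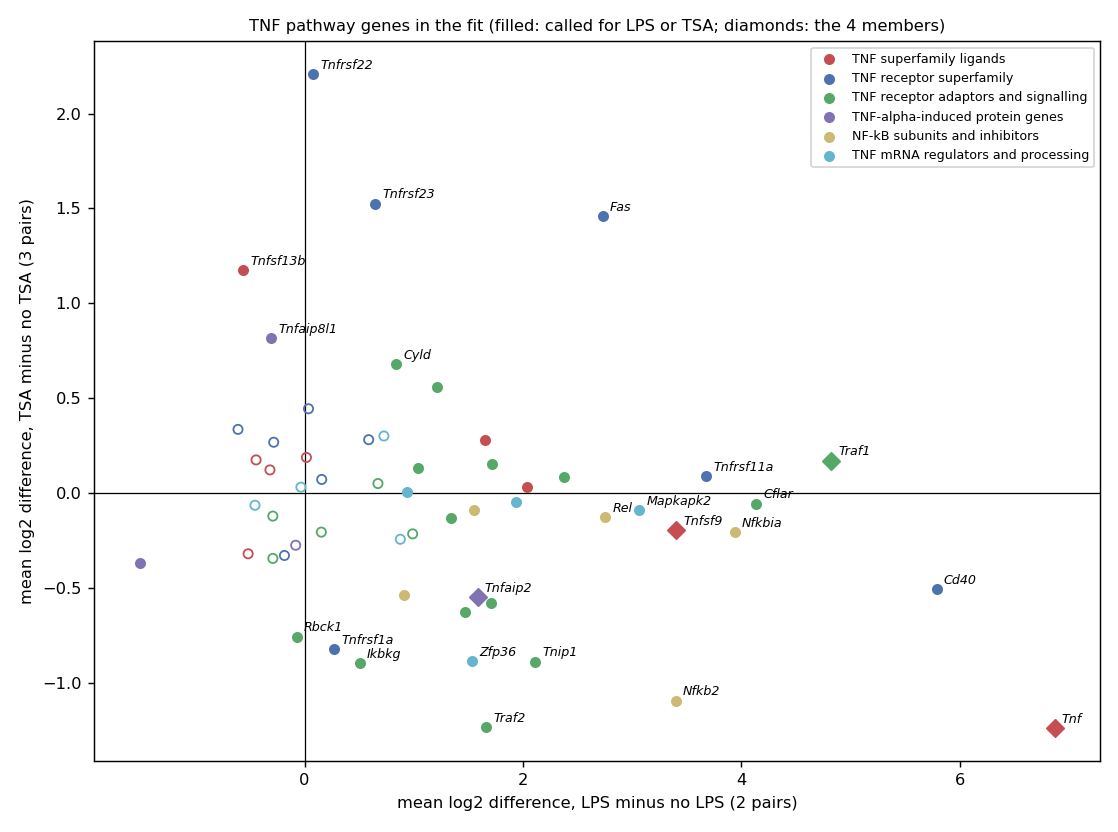
Mean log2 difference for LPS (x axis, 2 pairs) against that for TSA (y axis, 3 pairs) of the 57 pathway genes in the fit, coloured by list, filled where limma called either effect, with diamonds for the 4 genes. Both axes rest on the same arrays, so the plot is a side by side view; Tnf lies at 6.87 and -1.24, Traf1 at 4.82 and 0.17.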

How the data were processed

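The authors deposited 1 table of intensity values on a linear scale, 6 arrays by 10076 probes. Per the labels' protocols, biotin-labelled cRNA was made from 0.5 ug of total RNA by in vitro transcription. Array medians of 0.981 to 0.987 show prior scaling; its method, the scanner and the background correction are not given in the sources used here. The platform's probe table names 8983 probes, and probes without 1 symbol were left out.

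Each array was floored at its 25th percentile (0.198 to 0.245 units) and log2-transformed, and floored values make a difference a bound. A gene with several probes was read from its brightest probe. Genes reaching the median on at least 1 array (5080) were fitted with limma 3.58.1 in R 4.3.3, eBayes with trend, 2 residual and 16.9 prior degrees of freedom; with an interaction term 1 residual degree remains and the spread is pooled over all genes. Fits with arrays left out also have 1 residual degree, so their p-values lean more on the other genes and are not comparable with the main fit. In single pairs, with no test, a gene was measured where the brighter array reached its median. On simulated data the fits recovered 32.7% of 2-fold effects of LPS, 71.8% of those of TSA and 31.2% of those of GW3965. For the dependence of TSA on LPS and on GW3965 they recovered 2.6% and 1.8% of 2-fold effects. In those 2 tests 24.4% and 29.5% of the calls were false, as means over 20 simulated runs, so a missing call there says little about a 2-fold dependence. Of 4-fold effects they recovered 70.45% and 59.1%, with 10.7% and 7.99% of the calls false. Promoters are from RefSeq. Figures used matplotlib 3.10.9 in Python 3.11.15.

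The 4 genes and the lists were chosen with earlier results of these data known. Named are the 4 genes, list genes called for LPS, TSA or GW3965 or 4-fold apart in a pair, and the 5 nearest in pattern; Tnfsf13, Tnfaip3 and Adam17 were added after their values were seen, as background to the pathway. Nothing in the labels says the arrays come from separate cultures, so the p-values reflect nothing beyond the spread among these 6. Alternatives covered scaling, floor, filter, probes, prior variance and arrays left out; with 6 arrays, their number sets the precision.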

Additional observations from a re-analysis of the deposited data

How the results depend on the processing

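The LPS rise of Tnfsf9, Traf1 and Tnfaip2 kept its direction and its call under 16 of 16 alternatives; that of Tnf did too, but its entry through LPS arrays makes this no support. The TSA fall of Tnf was called under 17 of 18. The exception was the floor at the median, where it was -0.73 (limma adjusted p = 0.15) and the resting pair alone gave 0.0042. The alternatives are not all separate checks, for LPS or for TSA. Averaging probes changes no value of a gene with 1 probe. Leaving out either array of a TSA pair gives the same TSA mean as leaving out both. For Tnf those fits gave only the means -1.54, -1.10 and -1.07. The TSA difference of Tnfaip2 passed at -0.70 with quantile normalization, -0.72 with cyclic loess, -0.55 with a robust prior and -0.61 without the LPS and TSA + LPS arrays. Leaving out 1 array at a time, chosen after seeing the data, gave -0.63 to -0.41 for it. Over all genes, LPS falls numbered 557 with quantile normalization, 205 with the floor at the median and 163 to 487 with 1 array left out. TSA gave 241 rises and 100 falls with that floor, 334 rises without both GW3965 arrays, and 333 to 652 rises with 1 array left out. GW3965 gave 0 rises and 0 falls with that floor, 12 and 8 with no level filter, and 10 and 8 without the No treatment and TSA arrays. With 1 array left out it gave 2 to 39 rises and 3 to 39 falls. The dependence of TSA on LPS was called higher for 5 genes with quantile normalization, lower for 6 with a prior without trend, and for 0 and 0 with that floor. Its dependence on GW3965 was called for 0 and 0 with that floor, 1 and 0 with a level filter on 2 arrays, and 0 higher with a robust prior. In single pairs, counts of higher and lower genes at 1.5-fold and then 4-fold were 1130, 673, 262 and 52 for LPS at rest, and 897, 818, 158 and 36 for LPS with TSA. They were 934, 625, 31 and 8 for TSA at rest, 880, 1061, 38 and 26 for TSA with LPS, and 660, 337, 29 and 3 for TSA with GW3965 + LPS. For GW3965 they were 131, 332, 2 and 6 without TSA and 517, 271, 6 and 2 with it. Apart from the floor and the arrays left out, whose construction changes the values or samples used, the cause was not tested. No paired analysis was possible because the labels give no replicate numbers and each group has 1 array.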
